A study of Mus musculus with 9 samples.

Results

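Caspases are cysteine proteases that cut their substrates after aspartate, and 7 caspase genes are described here in spinal cord: Casp1, Casp4, Casp12, Casp2, Casp6, Casp8 and Casp9. They were read by the probe sets (groups of short oligonucleotides that together read 1 transcript) whose only gene symbol is 1 of these 7, which gave 11 of the 12422 probe sets that are not controls. All 11 passed the filter on dim signal, Casp12 only through arrays of diseased cord and Casp6 mostly through them. The inflammatory caspases Casp1, Casp4 and Casp12 had 1 probe set each. The apoptotic caspases had 8 probe sets, of which Casp9 had 4, Casp2 had 2, and Casp6 and Casp8 had 1 each. The 9 arrays, 1 per sample, held total RNA of spinal cord from B10.PL mice in 3 groups of 3. Naive mice (replicates 2, 3 and 4) were the controls. The other groups had EAE (experimental autoimmune encephalomyelitis, in which T cells against myelin inflame brain and cord, a model of multiple sclerosis). They had received placebo (replicates 1, 5 and 10) or 200 ng of 1,25(OH)2D3, the active vitamin D hormone called calcitriol (replicates 6, 7 and 8), and were sampled 6 h later. No placebo is named for the naive mice, so EAE and placebo cannot be told apart. How EAE was induced, the age of the mice and whether replicates were separate animals are not given in the sources used here. The p-values therefore stand for spread between samples that may be only technical. Calcitriol replicate 6 is titled with a D2 form of the hormone and described with the D3 form.

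Caspase-1 is activated in inflammasomes and cuts the precursors of interleukin-1 beta and interleukin-18. The protein encoded by mouse Casp4, often called caspase-11, senses bacterial lipopolysaccharide inside the cell and cuts the pore-forming gasdermin D. Caspase-12 is a related protease associated with the endoplasmic reticulum. Caspase-8 starts apoptosis from death receptors, caspase-9 starts it from mitochondria on the Apaf1 scaffold, caspase-2 is an initiator linked to genotoxic stress, and caspase-6 is an executioner that cuts nuclear lamins. Caspases are made as inactive precursors, so a transcript level does not measure their activity. In RNA of a whole tissue, fewer cells of a type and less RNA per cell cannot be told apart, and the same holds for more.

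Signals were scaled to a common mean and raised to a floor of 19.3 signal units, and an array at or below that floor is called dim. Spinal cord markers were present in every group. All 7 neuron, 6 oligodendrocyte and 5 astrocyte markers on the array were above the floor on at least 1 array of each group. Of these, Nefl, Stmn2, Mbp and Gfap were above the floor on all placebo and calcitriol arrays but on only 2 of 3 naive arrays. The cause of this was not tested. Naive arrays agreed less with each other (correlation of log2 signals over probe sets 0.765 to 0.878) than placebo (0.921 to 0.936) or calcitriol arrays (0.899 to 0.938). The 5′ minus 3′ log2 difference of the beta-actin controls, a sign of RNA and label length, was -0.05 ± 0.19 (SD, n = 3) in naive, -0.80 ± 0.35 (SD, n = 3) in placebo and -0.67 ± 0.16 (SD, n = 3) in calcitriol arrays. That difference moved with EAE, as did Casp4 described next, and its part in the results was not tested. Actb itself rose in placebo against naive on both of its probe sets, by 2.08 ± 0.33 log2 on the first (SE, limma adjusted p = 0.024), and also with values as deposited or quantile normalized. With 3 arrays in a group, the number of arrays sets the limit of precision.

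The comparison of placebo-treated EAE with naive cord asks what differed in diseased tissue, and calcitriol against placebo asks what differed 6 h after the hormone. Casp4 had the largest difference from naive cord of the 7 genes, with a signal 2.19-fold higher in placebo-treated and 2.84-fold higher in calcitriol-treated EAE. Casp1 also stood higher in the mean in both EAE groups, and Casp12, at the floor on every naive array, could not stand lower. Of the apoptotic genes Casp6 stood higher and Casp8 lower, and the probe sets of Casp2 and Casp9 stood lower in calcitriol against naive but differed among themselves in direction in placebo against naive. None of these differences passed the test. Of 11 caspase probe sets, 0 were called by limma (adjusted p under 0.05, Benjamini-Hochberg) in each of the 3 comparisons. Over all tested probe sets the called share was 0.936% in placebo against naive (0.887% higher and 0.0493% lower), 0% in calcitriol against placebo and 2.00% in calcitriol against naive (1.68% higher and 0.320% lower). At an unadjusted p under 0.05, 1 of the 11 passed in placebo against naive, 0 in calcitriol against placebo and 1 in calcitriol against naive, where the shares of all probe sets were 9.33%, 2.58% and 11.9%. The single probe set was that of Casp4 each time. The 3 comparisons share groups, and those with naive cord share the same control arrays.

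**Figure D1:**
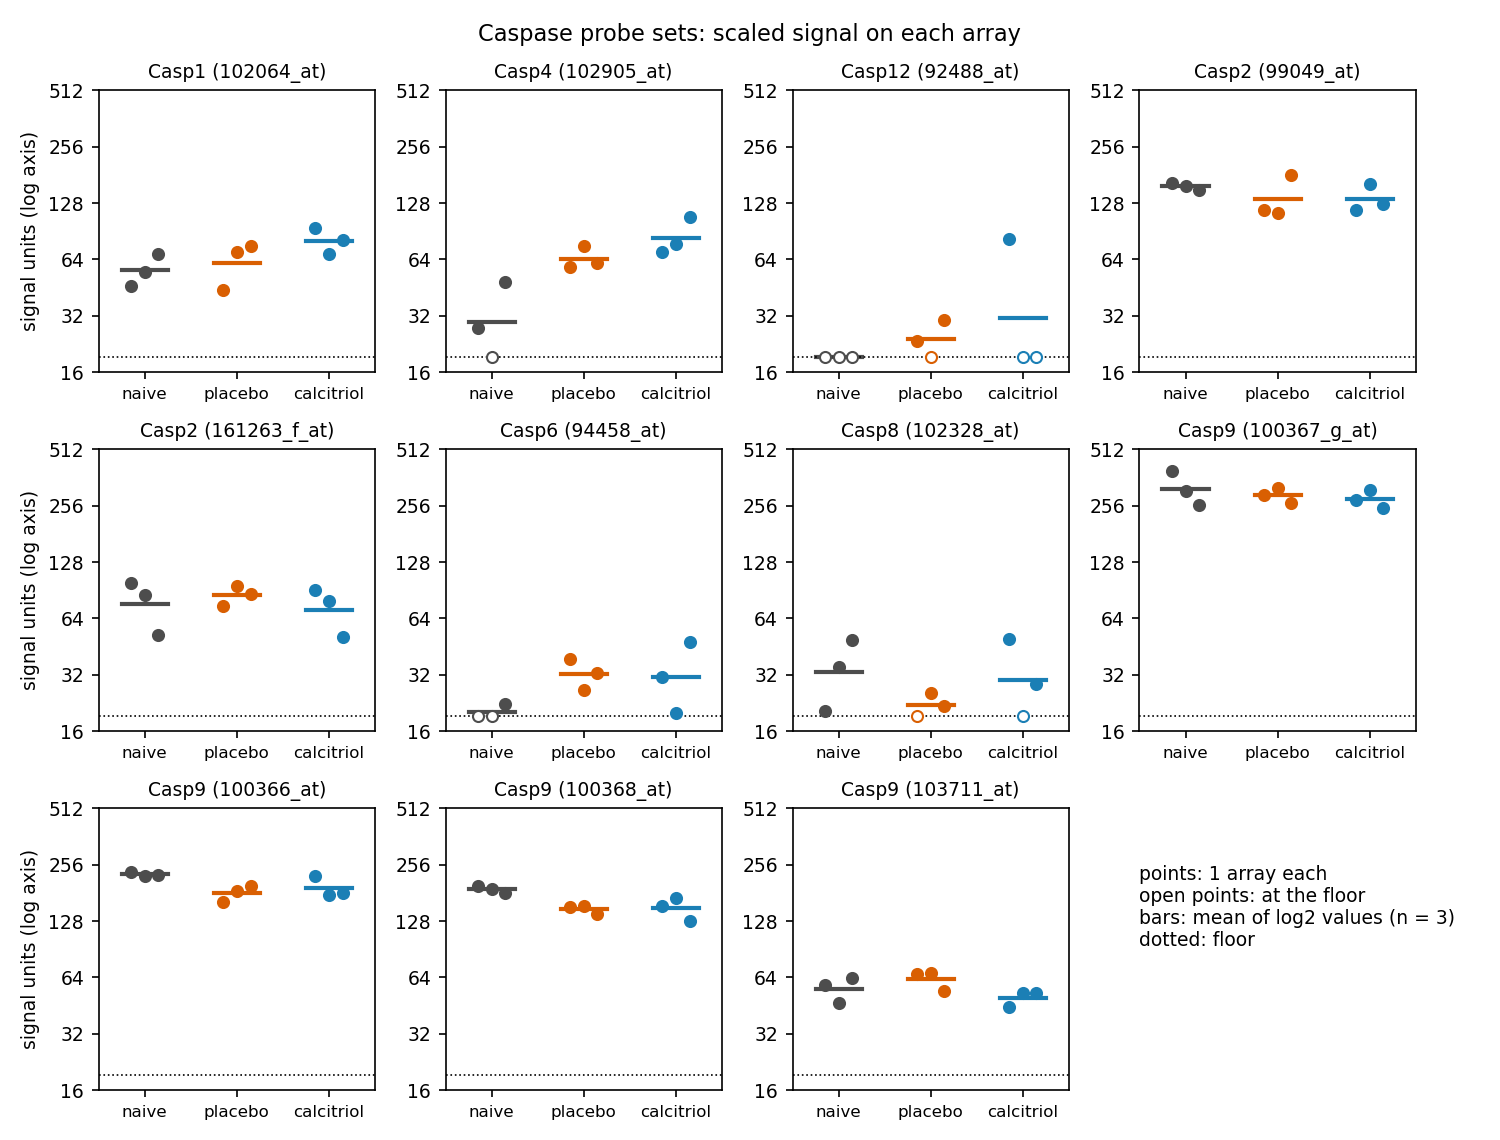
Scaled signal (signal units, log axis) of the 11 caspase probe sets on each array, with 1 point per array, open points at the floor of 19.3 (dotted line) and bars at the mean of log2 values (n = 3). Casp4 is the inflammatory gene whose EAE arrays all lie above its naive arrays, and Casp12 is at the floor on 6 of 9 arrays.

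Casp4 (probe set 102905_at) had signals of 27.4, 5.33 and 48.6 on naive replicates 2, 3 and 4. Placebo replicates 1, 5 and 10 gave 58.5, 75.3 and 61.5, and calcitriol replicates 6, 7 and 8 gave 70.6, 77.8 and 107. Every EAE array therefore lay above every naive array, naive replicate 3 was dim, and the 2 EAE groups overlapped. The log2 difference was 1.13 ± 0.37 (SE, n = 3 per group, 95% interval 0.31 to 1.96) for placebo against naive, with a limma adjusted p of 0.305 (Benjamini-Hochberg). For calcitriol against naive it was 1.51 ± 0.37 (SE, n = 3 per group, 0.68 to 2.33), with a limma adjusted p of 0.0866. For calcitriol against placebo it was 0.37 ± 0.37 (SE, n = 3 per group, -0.45 to 1.20), with a limma adjusted p of 1. Among the 8170 genes tested, 96.1% had a lower difference than Casp4 in placebo against naive and 97.7% in calcitriol against naive. Whether Casp4 passed depended on 1 array and on how arrays are weighted. Without naive replicate 4, the brightest naive array for this gene, calcitriol against naive was 1.87 log2 with a limma adjusted p of 0.0307. With array weights, which put most weight of the naive group on replicate 3, the differences were 1.62 (limma adjusted p = 0.0125) and 2.02 (limma adjusted p = 0.00298) against naive for placebo and calcitriol. Over all 19 alternatives the adjusted p ran from 0.0125 to 0.669 for placebo and from 0.00298 to 0.336 for calcitriol against naive. The size depended on the floor, because 1 naive array was dim: the difference for placebo was 1.47 with the floor at 5% and 0.64 with the floor at 20% of the common mean.

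The region around the Casp4 start site is shown because Casp4 had the largest difference from naive, beside those of its chromosome 9 neighbours. The windows run from 250 bases before to 50 bases after a start site, 5′ to 3′ on the plus strand, from RefSeq on GRCm38.p6 (C57BL/6J, another strain than B10.PL). RefSeq promoter windows were found for all 7 genes. Capitals mark matches to motifs searched on both strands: the NF-kappa B consensus, the ISRE core (GAAANNGAAA), AP-1 (TGANTCA), the GC box (GGGCGG) and the direct repeat bound by the vitamin D receptor.
Casp4, first of its 2 listed starts, chr9:5308599-5308898: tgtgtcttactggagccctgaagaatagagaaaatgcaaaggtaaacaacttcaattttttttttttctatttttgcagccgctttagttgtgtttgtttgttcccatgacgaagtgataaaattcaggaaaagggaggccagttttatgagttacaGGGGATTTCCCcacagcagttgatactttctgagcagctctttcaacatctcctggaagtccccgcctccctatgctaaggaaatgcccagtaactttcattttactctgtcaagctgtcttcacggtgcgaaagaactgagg
Casp1, chr9:5298267-5298566: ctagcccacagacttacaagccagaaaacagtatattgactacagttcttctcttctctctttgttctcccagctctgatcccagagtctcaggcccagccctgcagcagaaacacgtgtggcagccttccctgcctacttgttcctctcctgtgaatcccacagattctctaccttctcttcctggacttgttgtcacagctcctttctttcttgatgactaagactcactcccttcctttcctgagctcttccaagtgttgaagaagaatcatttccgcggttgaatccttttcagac
Casp12, chr9:5345226-5345525: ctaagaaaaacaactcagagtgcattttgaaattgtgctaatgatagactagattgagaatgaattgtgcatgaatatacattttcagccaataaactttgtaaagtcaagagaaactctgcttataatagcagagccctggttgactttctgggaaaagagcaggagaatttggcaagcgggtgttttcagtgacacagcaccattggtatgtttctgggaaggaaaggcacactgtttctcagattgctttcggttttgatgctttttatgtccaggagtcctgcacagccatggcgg
The Casp4 window held 2 overlapping matches to the NF-kappa B consensus, GGGGATTTCC from -93 to -84 and GGGATTTCCC from -92 to -83, counted from the start site. Of 32841 mouse promoter windows of this length, 4.51% held such a match. The Casp1 and Casp12 windows held none of these motifs, and the direct repeat for the vitamin D receptor (0.256% of all windows) was in none of the 7 genes' windows. A match is a run of letters and not evidence that a factor binds there, and no match says only that these letters are absent from the window.

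Casp1 (102064_at) had signals of 46.3, 55.1 and 68.9 on naive replicates 2, 3 and 4. The placebo arrays gave 43.7, 70.6 and 75.8 and the calcitriol arrays 94.0, 68.8 and 81.7, in the replicate order given above. Placebo overlapped naive, and calcitriol replicate 7 lay just below naive replicate 4 (68.8 against 68.9), so those groups overlapped too. The log2 difference was 0.14 ± 0.30 (SE, 95% interval -0.54 to 0.82) for placebo against naive, 0.39 ± 0.30 (SE, -0.29 to 1.07) for calcitriol against placebo and 0.53 ± 0.30 (SE, -0.15 to 1.21) for calcitriol against naive. The limma adjusted p-values were 0.94, 1 and 0.553 (Benjamini-Hochberg). These intervals leave room for about a doubling of Casp1 in calcitriol-treated EAE, and for no change.

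Casp12 (92488_at) was dim on all 3 naive arrays (7.23, 8.46 and 12.8). Placebo arrays gave 23.4, 3.61 and 30.5, and calcitriol arrays 82.3, 18.5 and -9.17. It was above the floor on 2 placebo arrays and on 1 calcitriol array, replicate 6, whose title names another form of the hormone. With dim arrays at the floor in every group, no fold can be bounded. The fitted log2 difference from naive was 0.31 ± 0.54 (SE, 95% interval -0.89 to 1.52, limma adjusted p = 0.911) for placebo and 0.70 ± 0.54 (SE, -0.50 to 1.90, limma adjusted p = 0.674) for calcitriol. A value below 0 was not possible for either, since all naive arrays were at the floor. The calcitriol value rests on replicate 6 alone, since the other calcitriol arrays were at the floor like the naive ones.

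Of the apoptotic initiators, Casp9 was read by 4 probe sets that did not move together. On 100366_at the naive arrays gave 235, 224 and 227, the placebo arrays 161, 187 and 198, and the calcitriol arrays 223, 177 and 182. On 100368_at they gave 198, 190 and 180, then 152, 154 and 140, then 153, 170 and 129. For both probe sets every EAE array lay below every naive array. The log2 differences for placebo against naive were -0.33 ± 0.16 (SE, 95% interval -0.69 to 0.02) and -0.35 ± 0.17 (SE, -0.72 to 0.02), with limma adjusted p-values of 0.571 and 0.583 (Benjamini-Hochberg). For calcitriol against naive they were -0.24 ± 0.16 (SE) and -0.34 ± 0.17 (SE), with limma adjusted p-values of 0.601 and 0.477. The other probe sets of Casp9, 100367_g_at and 103711_at, overlapped between EAE and naive arrays and stood at -0.11 ± 0.18 (SE) and 0.17 ± 0.26 (SE) for placebo against naive. Across the 9 arrays, the pairwise correlations among the 4 probe sets ran from -0.39 to 0.68, given as a description of probe sets that share arrays. The last of them, 103711_at, was lower on every calcitriol array (44.5, 53.1 and 52.6) than on every placebo array (67.2, 67.5 and 53.9), at -0.33 ± 0.26 log2 (SE, limma adjusted p = 1), while the other 3 overlapped.

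The Casp9 window is printed as the apoptotic counterpart of the inflammatory windows above, with capitals at the GC box.
Casp9, chr4:141793362-141793661: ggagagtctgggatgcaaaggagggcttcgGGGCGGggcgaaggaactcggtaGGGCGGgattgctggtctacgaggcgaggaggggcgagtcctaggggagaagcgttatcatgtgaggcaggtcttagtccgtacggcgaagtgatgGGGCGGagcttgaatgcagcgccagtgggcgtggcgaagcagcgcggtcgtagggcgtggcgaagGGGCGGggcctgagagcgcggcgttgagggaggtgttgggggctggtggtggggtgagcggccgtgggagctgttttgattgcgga
It held 4 GC boxes, and 35.7% of all windows hold at least 1. The Casp2 window held 2 and the Casp6 window 3, whereas those of Casp8, Casp1, Casp4 and Casp12 held none. GC content was 66.0% for Casp9, 63.7% for Casp2 and 62.0% for Casp6, against a median of 52.7% over all windows. It was 48.0% for Casp1, 42.0% for Casp4, 41.0% for Casp12 and 42.0% for Casp8. The windows of Casp9, Casp2 and Casp6 held 28, 26 and 16 CpG dinucleotides, those of the inflammatory genes 3 to 5 and that of Casp8 5. By these sequence measures Casp8 stood with the inflammatory genes.

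Casp8 (102328_at), the death receptor initiator, was close to the floor throughout. Naive arrays gave 20.5, 35.3 and 49.4, placebo arrays 8.39, 25.6 and 21.8, and calcitriol arrays 49.6, 16.6 and 28.5. All groups overlapped. The log2 difference was -0.58 ± 0.44 (SE, 95% interval -1.57 to 0.41, limma adjusted p = 0.762) for placebo against naive and 0.45 ± 0.44 (SE, -0.54 to 1.43, limma adjusted p = 1) for calcitriol against placebo. The first interval includes a halving and the second a doubling of Casp8.

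Casp2 gave signals of 164, 159 and 150 on the naive arrays with its brighter probe set, 99049_at. The placebo arrays gave 118, 114 and 181 and the calcitriol arrays 117, 163 and 127, so both EAE groups overlapped naive, with placebo replicate 10 the highest of all. The log2 difference was -0.23 ± 0.23 (SE) for placebo and for calcitriol against naive (limma adjusted p = 0.819 and 0.758) and 0.00 ± 0.23 (SE, 95% interval -0.51 to 0.51) between them. The other probe set, 161263_f_at, had the opposite sign for placebo against naive, at 0.16 ± 0.32 (SE, limma adjusted p = 0.934), and correlated with the first at 0.10 over the 9 arrays.

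Casp6 (94458_at), the executioner among the 7, was the apoptotic gene that stood higher in EAE. Naive arrays gave 1.49, 4.28 and 22.4, of which only replicate 4 was above the floor. Placebo arrays gave 39.0, 26.4 and 32.6, all above naive, and calcitriol arrays gave 31.3, 20.1 and 48.1, with replicate 7 below naive replicate 4. The log2 difference was 0.67 ± 0.37 (SE, 95% interval -0.15 to 1.49) for placebo and 0.62 ± 0.37 (SE, -0.20 to 1.44) for calcitriol against naive, with limma adjusted p-values of 0.656 and 0.569 (Benjamini-Hochberg). The log2 values of dim arrays are the floor, so these differences understate any larger change.

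Counting groups without overlap, Casp4 and Casp6 were higher and 2 Casp9 probe sets lower in placebo-treated EAE than in naive cord, 4 of 11 probe sets where all tested probe sets gave 14.5% (7.39% higher and 7.13% lower). In calcitriol against naive it was 3 of 11 (Casp4 higher and the same 2 Casp9 probe sets lower) where all gave 16.1% (8.45% higher and 7.69% lower). In calcitriol against placebo it was 1 of 11, Casp9 on 103711_at, where all gave 9.99% (4.82% higher and 5.17% lower). With 11 probe sets, several of them of 1 gene, these counts are a description.

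**Figure D2:**
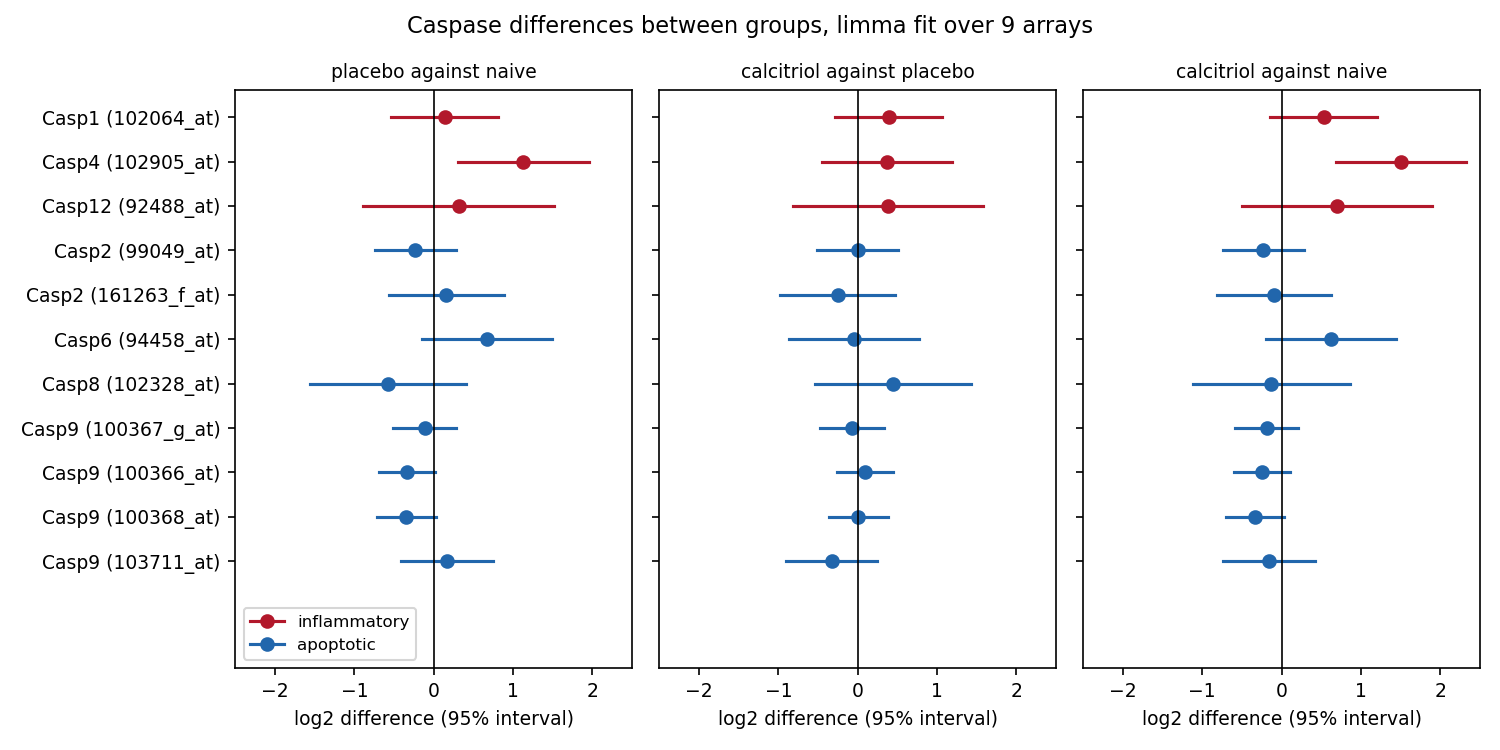
Log2 differences of the 11 caspase probe sets in the 3 comparisons, with points for the estimate and lines for its 95% interval (limma, n = 3 arrays per group), red for inflammatory and blue for apoptotic caspases. The intervals of Casp4 against naive, 0.31 to 1.96 and 0.68 to 2.33, are the ones that do not reach 0, and neither passed after adjustment.

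The inflammatory and the apoptotic caspases were set side by side, with no test. With 1 probe set per gene (99049_at for Casp2 and 100366_at for Casp9), the median log2 difference of the 3 inflammatory genes was 0.31 for placebo against naive (range 0.14 to 1.13), 0.38 for calcitriol against placebo (0.37 to 0.39) and 0.70 for calcitriol against naive (0.53 to 1.51). Each of these medians is the value of Casp12 itself, whose difference from naive could not be negative, so only Casp1 and Casp4 were free to differ in either direction. For the 4 apoptotic genes it was -0.28 (-0.58 to 0.67), 0.04 (-0.05 to 0.45) and -0.18 (-0.24 to 0.62). Over all 8170 genes the medians were -0.03, 0.00 and -0.02, with 46.6%, 49.5% and 47.3% of genes higher. Casp1 and Casp4 were higher in each comparison, and the apoptotic genes were higher in 1 of 4, 2 of 4 and 1 of 4. The inflammatory median for placebo against naive was 0.14 without placebo replicate 10, 0.14 with the floor at 20% and 0.84 with the floor at 5%. The apoptotic median for calcitriol against naive was -0.04 without naive replicate 4 and 0.0038 without calcitriol replicate 7, so its sign rested on that array. With all probe sets of a gene averaged, the apoptotic median was -0.10 for placebo against naive, -0.06 for calcitriol against placebo, a change of sign, and -0.15 for calcitriol against naive. No test was made over these genes, which were chosen with results known.

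On single arrays, each gene was set relative to its naive mean, and the median of the apoptotic genes was taken from that of the inflammatory genes. This gap was -0.09, -0.01 and 0.23 log2 on naive replicates 2, 3 and 4. It was 0.74, 0.66 and 0.67 on placebo replicates 1, 5 and 10 and 0.98, 0.49 and 0.81 on calcitriol replicates 6, 7 and 8. All 6 EAE arrays thus had a larger gap than all 3 naive arrays, and the placebo and calcitriol arrays overlapped. The naive and EAE arrays stayed apart under each of the 4 other scalings or floors tried, with the mean in place of the median, and with each of the 7 genes left out. They came closest without Casp8, where the highest naive array was at 0.3068 and the lowest EAE array at 0.3079, nearly an overlap. With the floor at 20% these were 0.23 and 0.27. Casp12, at the floor on every naive array, could not stand below its naive mean on any array, and without Casp12 the values were 0.44 and 0.73. All these settings reuse the same 9 arrays, and whether other sets of genes part the groups in this way was not tested. Naive values are centred on their own mean, so a gap near 0 in naive arrays is built in, and its distance from the EAE arrays has no test here.

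**Figure D3:**
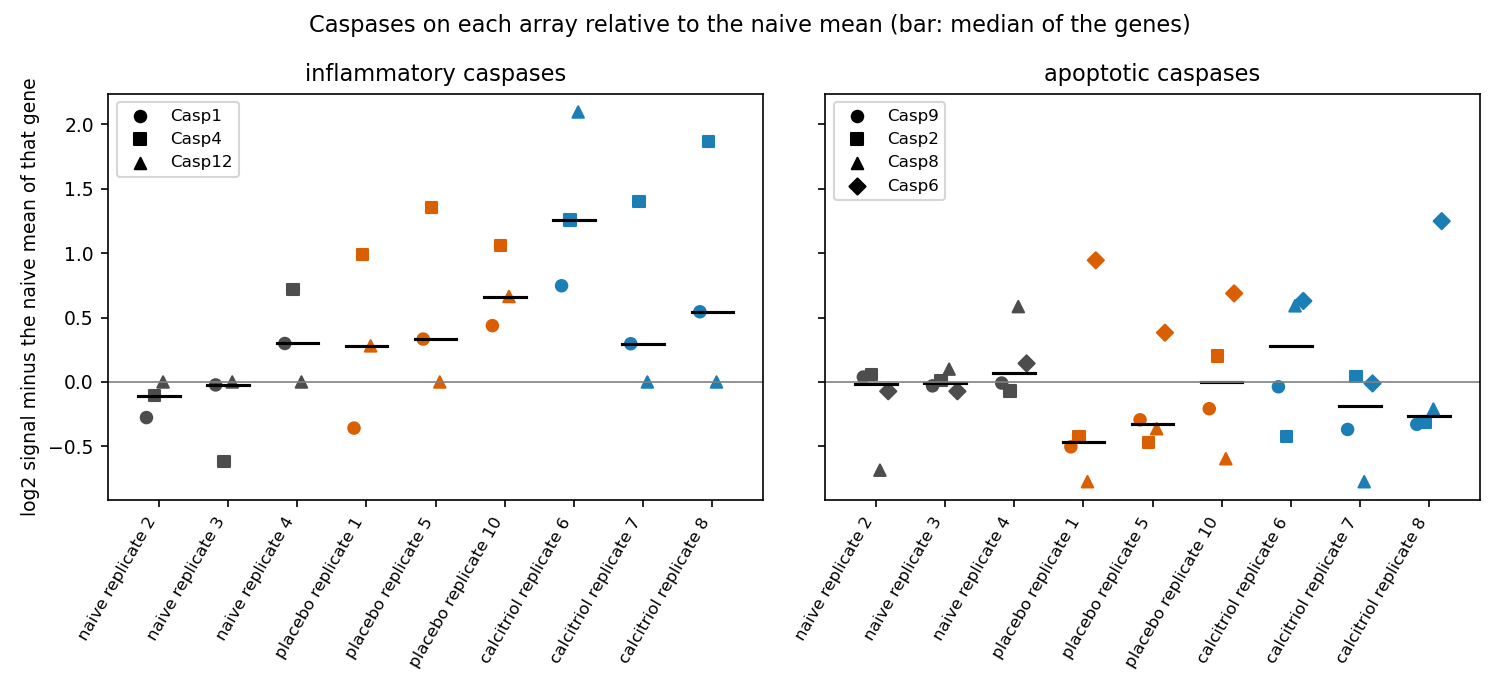
Log2 signal of each caspase minus its naive mean on each of the 9 arrays, for the inflammatory genes (left) and the apoptotic genes (right), with 1 symbol per gene, colours for the groups (grey naive, orange placebo, blue calcitriol) and a black bar at the median of the genes. Casp4 lies at the top on most EAE arrays at left, Casp12 reaches 2.09 on calcitriol replicate 6 only, and at right Casp6 lies above the other apoptotic genes on the placebo arrays.

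Markers of infiltrating and resident cells moved with the same arrays. The summed signal of 12 macrophage and microglia markers was 1363 to 1512 in the naive group. It was 2074 to 2801 with placebo and 2540 to 3573 with calcitriol. Of these 12, 10 stood higher in placebo against naive, with a median of 0.52 log2. There 3 rose and 0 fell (limma, adjusted p under 0.05): Lcp1 (with its other probe set opposite), Lyz2 and Cd53. Adgre1 and Fcgr3 stood lower (-0.68 and -0.63). In calcitriol against naive 10 stood higher, with a median of 0.73, and 4 rose and 0 fell, Lcp1, Lyz2, Cd53 and Itgam. Cd68 and Fcer1g stood lower there (-1.02 and -0.29), each with its other probe set opposite. In calcitriol against placebo 0 were called and 2 had an unadjusted p under 0.05, with a median of 0.43. The share of all probe sets at that unadjusted level was 2.58%. Lyz2, a macrophage and neutrophil lysozyme, and Cd53 were dim on all naive arrays. The sum of 8 neutrophil markers was 1472 to 1615 in naive cord, 2930 to 3903 with placebo and 2862 to 4063 with calcitriol. Of these, 3 of 8 (Lcn2, S100a8 and S100a9) rose in each comparison with naive. The other 5 were not called: Camp, Elane, Ltf, Mpo and Ngp stood at 0.13, 0.07, 0.69, 0.34 and 0.65 log2 in placebo against naive. In calcitriol against naive they stood at 0.07, -0.14, 0.38, 0.35 and 0.06 log2, in the same order. The sum of 7 T cell markers was 1578 to 1662 in naive, 1335 to 1388 in placebo and 1437 to 1748 in calcitriol arrays. That of 7 neuron markers was 5351 to 10858, 3816 to 5248 and 3347 to 4015 in the same order. No T cell or neuron marker was called by limma in any comparison. At an unadjusted p under 0.05, 1 T cell marker, lower, and 3 neuron markers passed in placebo against naive. The share of all probe sets was 9.33% there. Of the neuron markers 2 were lower and 1 higher, Stmn2, which had another probe set of opposite sign. Stmn2 was above the floor on only 2 of 3 naive arrays. In calcitriol against naive 6 of 7 neuron markers passed that unadjusted level, 5 of them lower, with a median of -0.92. There 11.9% of all probe sets passed it. Of 6 oligodendrocyte markers 1 fell, Mog, a myelin surface protein, in calcitriol against naive (-1.83 ± 0.30 log2, SE, limma adjusted p = 0.0158). It stood at -1.33 ± 0.30 (SE, limma adjusted p = 0.106) in placebo against naive. How much of the caspase differences went with these cell markers was not tested.

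Genes that act with caspases were read from 5 lists of 41, 20, 17, 7 and 26 genes. Of these, 18, 14, 13, 5 and 22 were measured. On the first list Nlrp3, Nlrc4, Aim2, Pycard and Gsdmd, the gene of gasdermin D, were among those not measured. Of 18 measured genes of the inflammasome and pyroptosis list, 2 rose in placebo against naive, 0 were called in calcitriol against placebo and 3 rose in calcitriol against naive, with medians of 0.25, 0.37 and 0.48 log2. At an unadjusted p under 0.05, 9 of 18 passed in placebo against naive, 8 higher and 1 lower. Of all probe sets, 9.33% passed that level there. The genes that rose were Gbp2 and Gbp3, interferon-induced GTPases that open pathogen vacuoles and expose lipopolysaccharide to caspase-11, and Il1rn, the antagonist of the interleukin-1 receptor. Gbp2 differed by 3.80 ± 0.69 log2 (SE, limma adjusted p = 0.0386) in placebo and 4.52 ± 0.69 (SE, limma adjusted p = 0.0113) in calcitriol against naive. Gbp2 was above the floor on only 2 of 3 naive arrays, so its naive mean includes an array set to the floor. Gbp3 differed by 1.98 ± 0.29 (SE, limma adjusted p = 0.0184) and 2.44 ± 0.29 (SE, limma adjusted p = 0.00401). Il1rn stood at 2.51 ± 0.59 (SE, limma adjusted p = 0.12) in placebo and rose by 3.10 ± 0.59 (SE, limma adjusted p = 0.0295) in calcitriol against naive.

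Both cytokine substrates of caspase-1 are on this list, and they are named here after their values were seen. Il1b was dim on all naive arrays (-3.96, -6.48 and -1.15). It gave 67.5, 134 and 17.6 on placebo and 97.0, 73.0 and 144 on calcitriol arrays. Every calcitriol array was above the floor. The mean of log2 values there stood 5.22-fold above naive arrays held at the floor, a lower bound for the means of these arrays only. The fitted difference was 2.38 ± 0.61 log2 (SE, limma adjusted p = 0.103) and was not called. Placebo replicate 10 was dim, and the fitted difference for placebo against naive was 1.54 ± 0.61 log2 (SE, limma adjusted p = 0.443). Il18 gave 209, 167 and 187 on naive, 185, 175 and 202 on placebo and 174, 169 and 135 on calcitriol arrays, and all groups overlapped (0.00 ± 0.17 log2, SE, for placebo against naive, limma adjusted p = 0.999).

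Of the genes of the death receptor list, 0 of 14 were called in any comparison, with medians of 0.07, 0.10 and 0.23 log2. Those with the smallest unadjusted p in placebo against naive were Tnfrsf1a, a receptor of tumour necrosis factor (0.50 ± 0.20, SE, with its other probe set opposite), Fasl, the ligand of the death receptor Fas (0.50 ± 0.21, SE), and Cradd, an adaptor that binds caspase-2 (-0.67 ± 0.33, SE). Their limma adjusted p-values were 0.443, 0.465 and 0.596. Of the mitochondrial list 0 of 13 were called in any comparison, with medians of 0.11, 0.05 and 0.15. Mcl1, a member of the Bcl2 family that prevents cytochrome c release, stood at 0.82 ± 0.30 (SE, limma adjusted p = 0.388), and Bak1, the pore-forming member, at 0.28 ± 0.19 (SE). Endog, a mitochondrial nuclease, stood at -0.15 ± 0.16 (SE). At an unadjusted p under 0.05, 2 of 14 death receptor genes and 1 of 13 mitochondrial genes passed in placebo against naive. Of all probe sets, 9.33% passed that level there.

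Inhibitors of apoptosis bind caspases or the complexes that activate them. With 1 probe set per gene, 5 of 5 stood higher in placebo against naive, where another probe set of Xiap had the opposite sign. It was 3 of 5 in calcitriol against placebo and 4 of 5 in calcitriol against naive. Of all genes, 46.6%, 49.5% and 47.3% stood higher in these comparisons, in that order. None of the 5 was called, and 0 of 5 had an unadjusted p under 0.05 in placebo against naive. The share of all probe sets was 9.33% there. Birc5 (survivin, a protein of dividing cells) stood at 0.52 ± 0.24 log2 (SE), Birc2 at 0.89 ± 0.48 (SE, with its other probe set opposite) and Birc6 at 0.40 ± 0.33 (SE). In calcitriol against placebo Birc2 stood at -1.21 ± 0.48 (SE, limma adjusted p = 1), again with its other probe set opposite. Of 22 substrates, other caspases and stress genes, 1 fell, Gsn, in calcitriol against naive. None was called in placebo against naive, where 3 of 22 had an unadjusted p under 0.05, nor in calcitriol against placebo, where 0 of 22 did. Of all probe sets, 9.33% and 2.58% passed that unadjusted level in these comparisons, in that order. Gelsolin, the Gsn product, is an actin-severing protein that caspases cut. Gsn fell by 0.92 ± 0.16 on the log2 scale (SE, limma adjusted p = 0.0188) and stood at -0.65 ± 0.16 (SE, limma adjusted p = 0.133) in placebo against naive.

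**Figure D4:**
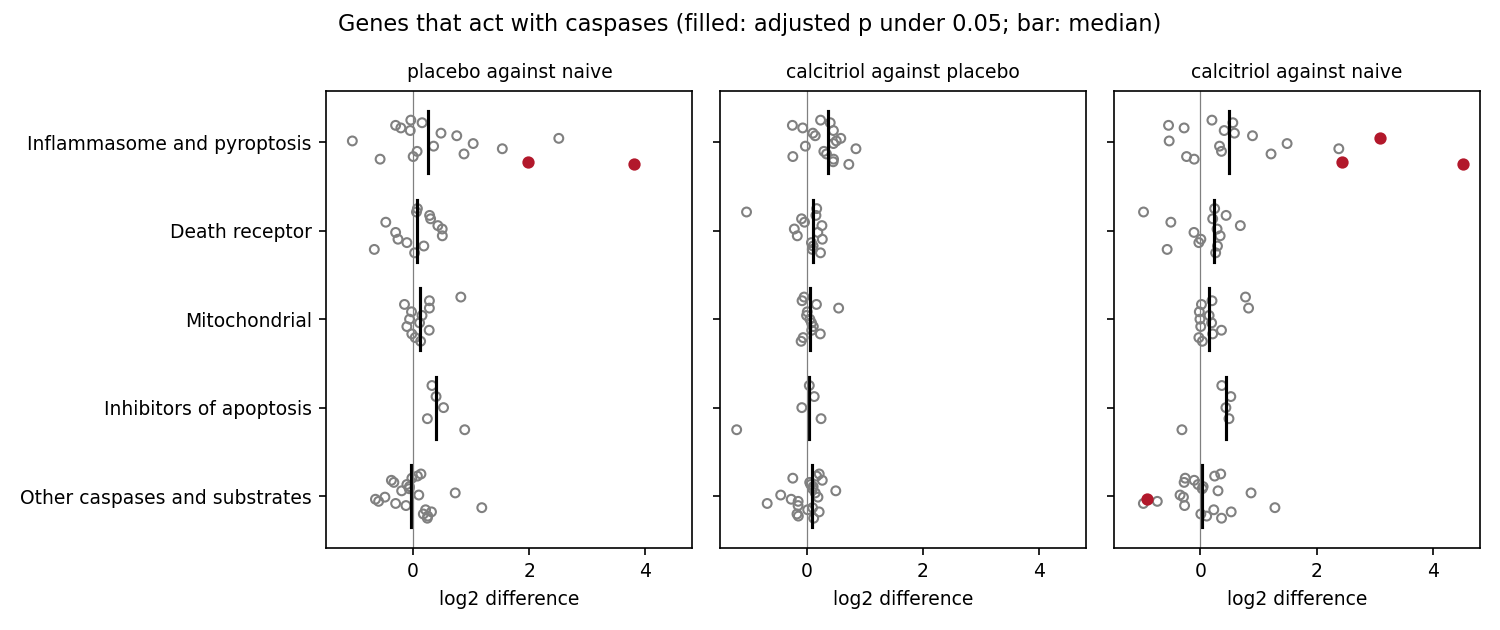
Log2 differences of the genes on 5 lists (1 point per gene, filled red where the limma adjusted p is under 0.05) in the 3 comparisons, with black bars at the list medians. Filled points are Gbp2 and Gbp3 in placebo against naive, these and Il1rn in calcitriol against naive, and Gsn on the left side of the last panel.

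The genes most like each caspase over the 9 arrays were taken by Pearson correlation of log2 signal, as a description of arrays that share the EAE and naive groups. For Casp4 they were Plet1 (0.96), Irf7 (0.95), the interferon regulatory factor that is itself induced by interferon, and Tgif1 (0.95). For Casp1 they were Tpsb2, a mast cell tryptase (0.95), Rap2b (0.94) and Fxr2 (0.93). For Casp9 they were Trib3 (0.96), Actl6b (0.94) and Agpat3 (0.93), and for Casp2 Tnfrsf19 (0.92), Dkk3 (0.90) and Rgs5 (0.90). Casp8 was nearest to Myh4 (0.94), Adgre5 (0.94) and Tcl1 (0.94), and Casp6 to Hmgb2 (0.90), Btf3 (0.89) and Lama5 (0.88). Casp12 was left out, being above the floor on 3 arrays.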

How the data were processed

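Spinal cord RNA of 9 samples was measured on 1-colour oligonucleotide arrays. The values deposited by the authors are linear intensity signals of 12488 probe sets. Their scaling and summary are not given in the sources used here. Of all values, 765 were exactly 0, none of them in a caspase probe set. Here each array was scaled to a common mean of 192.8 (lowest and highest 2% left out), with values under 10% of that mean (19.3) set to this floor before log2. The 66 controls were left out, and 12177 probe sets that exceeded the floor on 3 or more of the 9 arrays were tested. Gene symbols came from a platform annotation: 10855 probe sets had 1 symbol, 396 several and 1237 none, and RefSeq gene tables (GRCm38.p6) changed none. A gene was represented by a plain probe set with the highest mean.

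The 3 groups were fitted together with limma 3.58.1 in R 4.3.3 (lmFit, then eBayes with a trend on mean intensity), with Benjamini-Hochberg adjustment over all tested probe sets and a threshold of 0.05. The fit was tested on simulated data with planted changes of 2 log2, normal noise, the same spread in every group and no floor. That test does not cover dim probe sets or the lower agreement of naive arrays. Plots used Python 3.11.15, pandas 2.3.3 and matplotlib 3.10.9. The members and gene lists were chosen with earlier results of these data known. Named genes were all members and list or marker genes past the threshold in any comparison. For a list of genes that act with caspases with none past it, they were the 3 with the smallest unadjusted p in placebo against naive. The 3 genes most correlated with each member above the floor on at least 6 arrays were also named. Actb, Il1b and Il18 were named besides, as were list and marker genes given for their direction or as not measured. Alternatives were other scalings, floors, filters, variance models, array weights, fits of 2 groups and leaving out each array. A further promoter motif is not reported here.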

Additional observations from a re-analysis of the deposited data

How the results depend on the processing

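No paired analysis was possible because the replicate numbers of the labels do not repeat between groups. The 33 caspase differences gave 600 values under the alternatives, of which 572 kept direction and side of the threshold, 3 passed it (all of Casp4) and 25 changed sign, all of differences that were not called. Dim signal limits Casp12, Casp6 and Casp8, and filters left Casp12 out of 5 and Casp6 and Casp8 out of 2 of 19 alternatives (the floor at 20% and the filter on the mean). The count of called probe sets in placebo against naive, 114, was 61 with only the 2 groups fitted, 639 with array weights and 20 to 176 leaving out single arrays. That in calcitriol against naive, 244, was 118, 1014 and 75 to 392. In calcitriol against placebo leaving out single arrays gave 0 to 1. The count of called caspase probe sets was 1 with array weights in both comparisons with naive and 0 to 1 leaving out single arrays in calcitriol against naive (1 without naive replicate 4). With the floor at 5% the inflammatory median was 0.84 for placebo and 1.21 for calcitriol against naive, and leaving out single arrays gave 0.42 to 1.05 for the latter. The cause of these shifts was not tested. The settings tried for the gap between inflammatory and apoptotic genes were chosen after seeing the data.

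Sign changes in placebo against naive were Casp9 on 100367_g_at (0.017 with values as deposited, -0.26 to 0.0438 leaving out single arrays), Casp1 (-0.0122 to 0.38) and Casp2 on 161263_f_at (-0.11 to 0.34). In calcitriol against placebo they were Casp9 on 100368_at (-0.0031 as deposited, -0.0811 to 0.12 leaving out arrays), on 100366_at (-0.0138 to 0.15) and on 100367_g_at (-0.15 to 0.0061), Casp6 (0.0344 with quantile normalization, -0.36 to 0.27) and Casp2 on 99049_at (0.0017 with quantile normalization, 0.0865 with array weights, -0.14 to 0.22). In calcitriol against naive they were Casp2 on 161263_f_at (0.0218 as deposited, -0.37 to 0.15), Casp9 on 103711_at (0.0764 with array weights) and Casp8 (-0.49 to 0.19 leaving out arrays).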
